A study of Mus musculus with 6 samples.

Results

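The expression of 9 genes of extracellular adenosine and purine signalling was examined in type 1 innate lymphoid cells (ILC1s) and NK cells of the same mouse tumour model. The 9 genes are Entpd1, Nt5e, Adora2a, Adora2b, Ada, Dpp4, Cd38, P2rx7 and P2rx4. They were picked by symbol from the 55291 genes of the deposited count table, and all 9 were among the 14475 genes with enough counts to be tested. ILC1s and NK cells were sorted from tumours that grew for 14 days under the skin of wild-type C57/BL6 mice injected with MC38, a mouse colon carcinoma line. There were 3 ILC1 libraries and 3 NK libraries, and no genetic change or drug treatment is named for either. The sources used here do not give the age and sex of the mice, the antibodies of the sort or the number of mice behind a library, so the spread between libraries may be technical.

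ATP released from stressed or dying cells acts on P2 receptors. On the cell surface, CD39 (Entpd1) cuts ATP and ADP to AMP, and CD73 (Nt5e) cuts AMP to adenosine. CD38 uses NAD and opens a further route to AMP. Adenosine acts through receptors coupled to G proteins, and the A2A and A2B receptors (Adora2a, Adora2b) raise cAMP, which restrains killing and cytokine release by lymphocytes. Adenosine deaminase (Ada) converts adenosine to inosine. CD26 (Dpp4), a surface peptidase, binds adenosine deaminase in humans. The channels P2X7 (P2rx7) and P2X4 (P2rx4) open when ATP binds.

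The libraries held 16931099 to 20224847 counts. Levels are given as CPM, counts scaled to the size of each library, and log2 fold changes are ILC1 minus NK, from edgeR's quasi-likelihood test with Benjamini-Hochberg adjustment over all genes tested and a threshold of 0.05. All 5 markers shared by group 1 innate lymphoid cells were detected in every library, with summed levels of 4001 to 4787 CPM in ILC1s and of 5065 to 7900.0 CPM in NK cells. The sum of 5 ILC1 markers ran from 312 to 471 CPM in ILC1s, against 61.5 to 81.4 CPM in NK cells. The sum of 5 NK markers ran from 89.4 to 274 CPM in ILC1s, against 859.8 to 1324 CPM in NK cells. The libraries also differed in the summed levels of marker genes of other cells. The 12 macrophage and monocyte markers summed to 13847 CPM in ILC1 replicate 3, with 292 to 395 CPM for ILC1 replicates 1 and 2 and 111 to 288 CPM for NK cells. Lyz2 was the highest of them, with 5829 CPM in ILC1 replicate 3, and of the 12 only Mrc1 in NK replicate 2 was at 0. The 10 fibroblast and matrix markers summed to 1333, 1754 and 5929 CPM in ILC1 replicates 1 to 3, and to 9.38, 14.9 and 1102 CPM in NK replicates 1 to 3. Fn1, which macrophages also make, took 5887 CPM of the sum in ILC1 replicate 3, where the collagen gene Col3a1 was at 20.8 CPM. In NK replicates 1 and 2, 3 of the 10 matrix markers were at 0 in each library (Lum, Pdgfra and Fap in replicate 1, and Lum, Postn and Fap in replicate 2). T cell markers (9 genes) summed to 76.3 to 214 CPM in ILC1s, with the highest sum in replicate 3, and to 57.4 to 77.4 CPM in NK cells, where Cd8b1 was at 0 in replicate 1. The sums of the dendritic cell, neutrophil and epithelial markers were also highest in ILC1 replicate 3, at 2759, 52.5 and 381 CPM. Most of these sums came from H2-Ab1 (2168 CPM), Csf3r (44.8 CPM) and Cdh1 (376.7 CPM). The neutrophil markers other than Csf3r, and the epithelial markers Krt8, Krt18, Krt19 and Cldn4, peaked in other libraries. The B cell and endothelial sums were not highest there. Over the 14475 genes tested, log2 CPM of NK replicate 3 correlated more closely with ILC1 replicates 1 and 2 than with NK replicates 1 and 2. Pearson's r across genes was 0.977 and 0.971 with the ILC1 libraries, against 0.879 and 0.880 with the NK libraries. Values are therefore also given without the replicate 3 libraries. These libraries were picked for removal from the values above, so calls made without them are a description only. Genes with at least 1 count numbered 21799, 21872 and 19402 in ILC1 replicates 1 to 3, against 15819, 15862 and 20772 in NK replicates 1 to 3. Mitochondrial genes took 3.08, 2.65 and 1.93% of counts in ILC1 replicates 1 to 3, against 1.72, 1.39 and 3.30% in NK replicates 1 to 3.

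ILC1s held less Adora2a mRNA and more Cd38 mRNA than NK cells in every library, with little spread among the ILC1 libraries for either gene. Nt5e, P2rx4, P2rx7 and Adora2b were also higher in every ILC1 library than in every NK library, but ILC1 replicate 3 stood far above the others for Nt5e, P2rx4 and Adora2b. Entpd1, Ada and Dpp4 overlapped between the cell types. By edgeR's test 0 of the 9 passed, and 4 had an unadjusted p under 0.05. Of the 14475 genes 12 passed (0.0829%; 0.076% higher and 0.00691% lower in ILC1s), and 15.8% had an unadjusted p under 0.05. With RLE or upper-quartile normalization 0 of the 9 passed too, beside 0.0898 and 0.0967% of genes. DESeq2 called Adora2a, Cd38, Nt5e and P2rx4 (3 higher and 1 lower in ILC1s), where it called 808 of the 14336 genes to which it gave an adjusted p (5.64%), and limma-voom called 0 of the 9 and 0.124% of genes. In bulk RNA, fewer cells that express a gene and less of its RNA per cell cannot be told apart.

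The separation of the libraries was read against all genes. For 5 of the 9 genes every ILC1 library lay above every NK library, and for 1 every ILC1 library lay below. Among all genes tested these shares were 12.5% and 13.3%. The 9 genes were listed with earlier results of these data known, so the comparison is a description only. A two-sided exact permutation test of 3 libraries against 3 has 0.1 as its smallest p. ILC1 replicate 3 was the highest of the 6 libraries for 6 of the 9 genes, and for 24.8% of all genes tested.

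**Figure D1:**
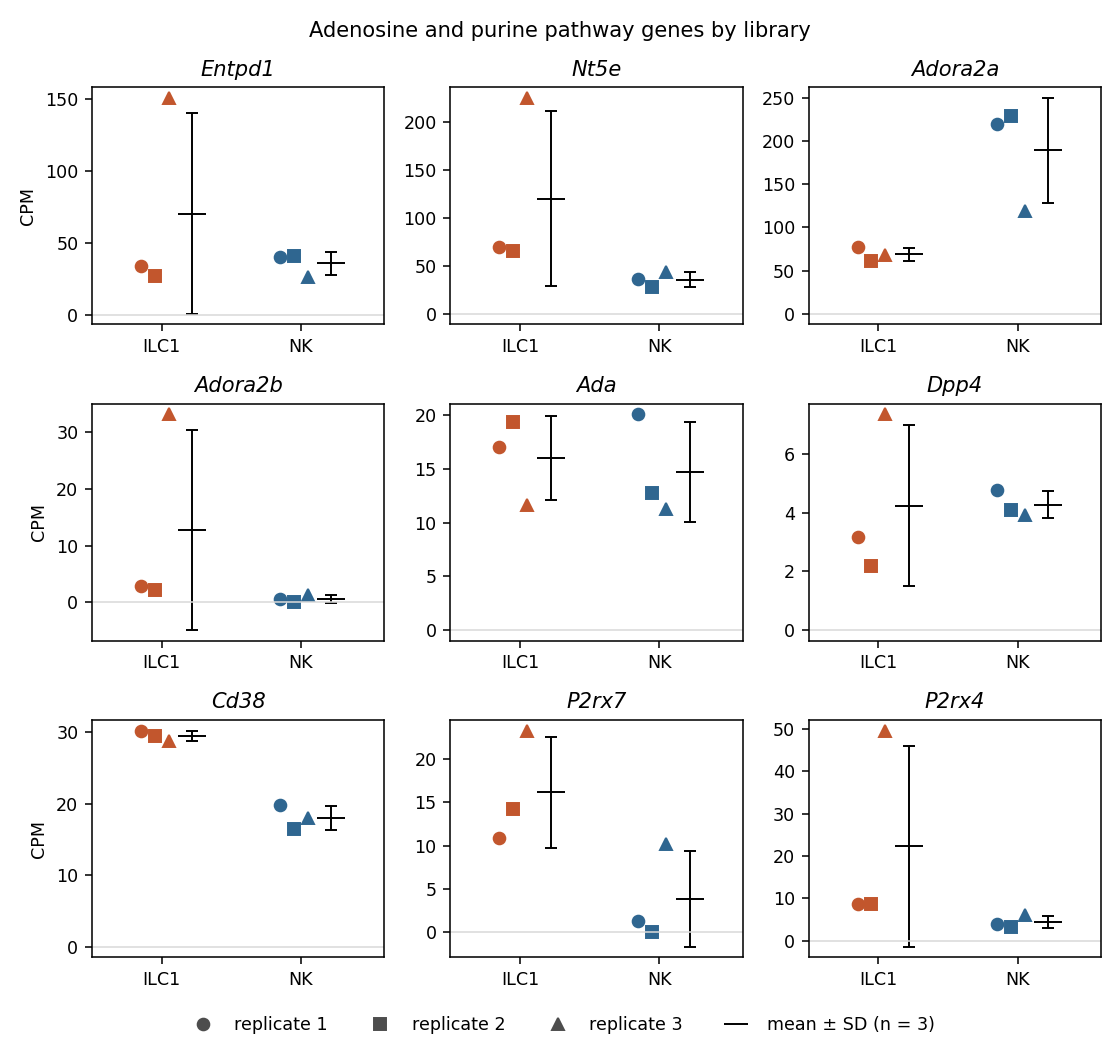
CPM of each gene (y axis, linear) in the 3 ILC1 libraries (left, orange) and the 3 NK libraries (right, blue), with the marker shape giving the replicate and the bar the mean ± SD (n = 3 each). Adora2a separates downward and Cd38 upward in ILC1s, while ILC1 replicate 3 (triangle) is at 150.5 CPM for Entpd1 and 225 CPM for Nt5e.

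Of the 2 surface enzymes that lead from ATP to adenosine, Nt5e separated the cell types and Entpd1 did not, and the difference between them was not tested. Entpd1 (ENSMUSG00000048120.16; chromosome 19, 40612366 to 40741602 on GRCm38, forward strand, protein coding) had 33.8, 26.7 and 150.5 CPM in ILC1 replicates 1 to 3, against 40.3, 40.6 and 26.3 CPM in NK replicates 1 to 3. The groups overlapped, and only ILC1 replicate 3 stood apart. The log2 fold change was 0.98 ± 0.71 (SE; edgeR adjusted p = 0.547), and it was -0.25 without ILC1 replicate 3 (edgeR adjusted p = 0.642).

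Nt5e (ENSMUSG00000032420.8; chromosome 9, 88327197 to 88372092, forward strand, protein coding) had 69.97, 65.1 and 225 CPM in ILC1 replicates 1 to 3, against 35.9, 28.1 and 43.2 CPM in NK replicates 1 to 3. All ILC1 libraries lay above all NK libraries, the lowest at 65.1 CPM and the highest NK library at 43.2 CPM. The log2 fold change was 1.75 ± 0.55 (edgeR adjusted p = 0.255, DESeq2 adjusted p = 0.00793). Without ILC1 replicate 3 it was 0.90 (edgeR adjusted p = 0.188), and without both replicate 3 libraries 1.08 (edgeR adjusted p = 0.00651), in a fit that called 30.3% of all genes. Entpd1, Nt5e and the macrophage markers were all highest in ILC1 replicate 3. So were the summed T cell and dendritic cell markers, and the neutrophil and epithelial sums through Csf3r and Cdh1. The part of other cells in these values was not tested.

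Adora2a was the adenosine receptor gene with the most mRNA in both cell types. Adora2a (ENSMUSG00000020178.6; chromosome 10, 75316877 to 75334784, forward strand, protein coding) had 76.7, 61.3 and 68.3 CPM in ILC1 replicates 1 to 3, against 219, 229 and 119 CPM in NK replicates 1 to 3. The ILC1 libraries lay close together and below every NK library, and NK replicate 3, the NK library with the most matrix RNA, genes detected and mitochondrial counts, lay nearest to them. The part of these differences in the Adora2a values was not tested. The mean was 68.8 ± 7.69 CPM in ILC1s, against 189 ± 60.6 CPM in NK cells (SD, n = 3 each), a 2.75-fold lower level in ILC1s. The log2 fold change was -1.46 ± 0.27 (edgeR adjusted p = 0.127, DESeq2 adjusted p = 0.00027). Across the 14 alternatives the log2 fold change ran from -1.70 to -1.29 (adjusted p = 0.00027 to 0.451 by edgeR, DESeq2 or limma-voom), and it passed in 4 of them. These included DESeq2 and the fit with no low-count filter (edgeR adjusted p = 0.0455, with 0.527% of genes called). The others were the fits without NK replicate 3 (edgeR adjusted p = 0.0299, with 3% called) and without both replicate 3 libraries (edgeR adjusted p = 0.00129, with 30.3% called).

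Adora2b encodes the receptor that needs more adenosine to respond. Adora2b (ENSMUSG00000018500.2; chromosome 11, 62248984 to 62266453, forward strand, protein coding) had 53, 46 and 572 counts in ILC1 replicates 1 to 3, against 11, 0 and 29 counts in NK replicates 1 to 3. In CPM these were 2.95, 2.24 and 33.1 in ILC1s, against 0.549, 0 and 1.39 in NK cells, where a count of 0 allows up to 0.154 CPM in NK replicate 2, for counting error only. The groups did not overlap, but only ILC1 replicate 3 exceeded 3 CPM. On the log2 scale the fold change was 4.28 ± 1.78 (edgeR adjusted p = 0.324), and 1.96 without ILC1 replicate 3 (edgeR adjusted p = 0.567). Without NK replicate 3 it was 5.505 (edgeR adjusted p = 0.187), and DESeq2 gave no adjusted p. Adora2b, the macrophage markers and other marker lists were highest in the same library, and the part of other cells in the Adora2b values was not tested.

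Ada and Dpp4 did not separate the cell types. Ada (ENSMUSG00000017697.3; chromosome 2, 163726584 to 163750239, reverse strand, protein coding) had 17.1, 19.3 and 11.6 CPM in ILC1 replicates 1 to 3, against 20.05, 12.8 and 11.3 CPM in NK replicates 1 to 3. The ranges overlapped almost fully, and the log2 fold change was 0.12 ± 0.32 (edgeR adjusted p = 0.861). Dpp4 (ENSMUSG00000035000.8; chromosome 2, 62330073 to 62412231, reverse strand, protein coding) had 3.17, 2.19 and 7.35 CPM in ILC1 replicates 1 to 3, against 4.79, 4.10 and 3.93 CPM in NK replicates 1 to 3. The NK libraries lay between ILC1 replicate 3 and the other ILC1 libraries, and the log2 fold change was -0.01 ± 0.53 (edgeR adjusted p = 0.994) with all libraries and -0.68 without ILC1 replicate 3 (edgeR adjusted p = 0.51). The antisense gene Gm13561 shares 232 exonic bases with Dpp4, and it held 1 count, in ILC1 replicate 2.

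Cd38 was higher in ILC1s, with the narrowest range of log2 fold changes of the 9 genes over the 14 alternatives. Cd38 (ENSMUSG00000029084.5; chromosome 5, 43868553 to 43912375, forward strand, protein coding) had 30.2, 29.5 and 28.8 CPM in ILC1 replicates 1 to 3, against 19.7, 16.4 and 17.9 CPM in NK replicates 1 to 3. The lowest ILC1 library was at 28.8 CPM and the highest NK library at 19.7 CPM, and ILC1 replicate 3 did not stand out. The mean was 29.5 ± 0.681 CPM in ILC1s, against 18.04 ± 1.67 CPM in NK cells (SD, n = 3 each), a 1.64-fold difference. Cd38 had a log2 fold change of 0.71 ± 0.15 (edgeR adjusted p = 0.14, DESeq2 adjusted p = 0.0409), and it ran from 0.65 to 0.77 over the 14 alternatives (adjusted p = 0.0277 to 0.46 by edgeR, DESeq2 or limma-voom). It was 0.715 without ILC1 replicate 3 and 0.71 without NK replicate 3. Cd38 passed by DESeq2 (5.64% of genes called) and by edgeR without both libraries (30.3% called).

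The ATP-gated channels P2rx7 and P2rx4 are neighbours on the forward strand of chromosome 5, with 16111 bases between them. P2rx7 (ENSMUSG00000029468.17; 122643911 to 122691432, protein coding) had 196, 293 and 403 counts in ILC1 replicates 1 to 3, against 25, 0 and 211 counts in NK replicates 1 to 3. These equalled 10.9, 14.3 and 23.3 CPM in ILC1s, against 1.25, 0 and 10.1 CPM in NK cells. NK replicate 3 lay just below the lowest ILC1 library and far above the other NK libraries. P2rx7 had a log2 fold change of 2.09 ± 1.61 (edgeR adjusted p = 0.571), and without NK replicate 3 it was 4.68 (edgeR adjusted p = 0.141). It was 4.32 without both replicate 3 libraries (edgeR adjusted p = 0.0356), in a fit that called 30.3% of all genes. Among NK cells the matrix markers were also highest in replicate 3 (9.38, 14.9 and 1102 CPM in replicates 1 to 3), as were the genes detected and the mitochondrial share, and their part in the P2rx7 values was not tested. Splice forms of P2rx7 are not separated by gene counts. The microRNA gene Mir8115, on the same strand, shares 119 exonic bases with P2rx7, and how reads there were counted is not given.

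P2rx4 (ENSMUSG00000029470.15; chromosome 5, 122707544 to 122729738, protein coding) had 8.56, 8.66 and 49.5 CPM in ILC1 replicates 1 to 3, against 4.04, 3.33 and 6.09 CPM in NK replicates 1 to 3. The groups did not overlap, ILC1 replicate 3 was far above the rest, and the lowest ILC1 library was at 8.56 CPM beside 6.09 CPM in NK replicate 3. P2rx4 had a log2 fold change of 2.31 ± 0.81 (edgeR adjusted p = 0.28, DESeq2 adjusted p = 0.0147), and 0.92 without ILC1 replicate 3 (edgeR adjusted p = 0.382). Without both replicate 3 libraries it was 1.23 (edgeR adjusted p = 0.0344), in a fit that called 30.3% of all genes. The macrophage markers and other marker lists were highest in the same ILC1 library, and their part in the P2rx4 difference with all libraries was not tested.

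**Figure D2:**
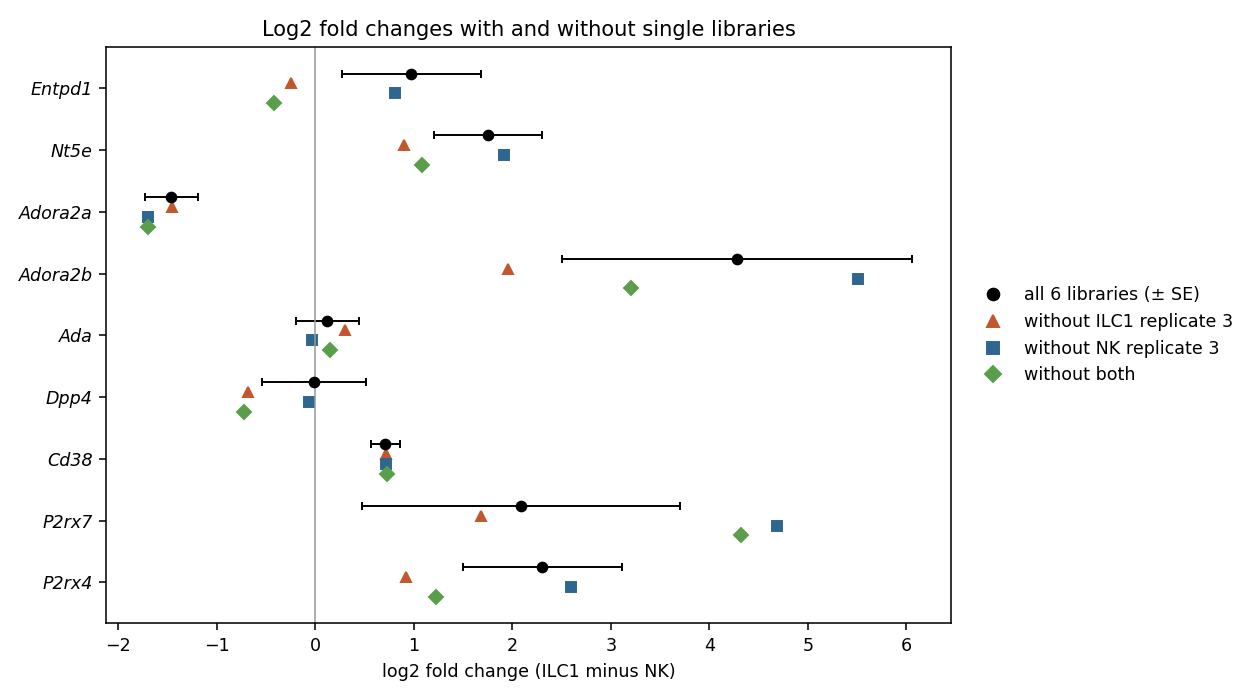
Log2 fold change (x axis, ILC1 minus NK) of each gene with all 6 libraries (black, bar ± SE), without ILC1 replicate 3, without NK replicate 3 and without both. Cd38 stays between 0.71 and 0.73 and Adora2a between -1.70 and -1.46 in these 4 fits, while Entpd1 is at 0.98 with all libraries and at -0.25 without ILC1 replicate 3.

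**Figure D3:**
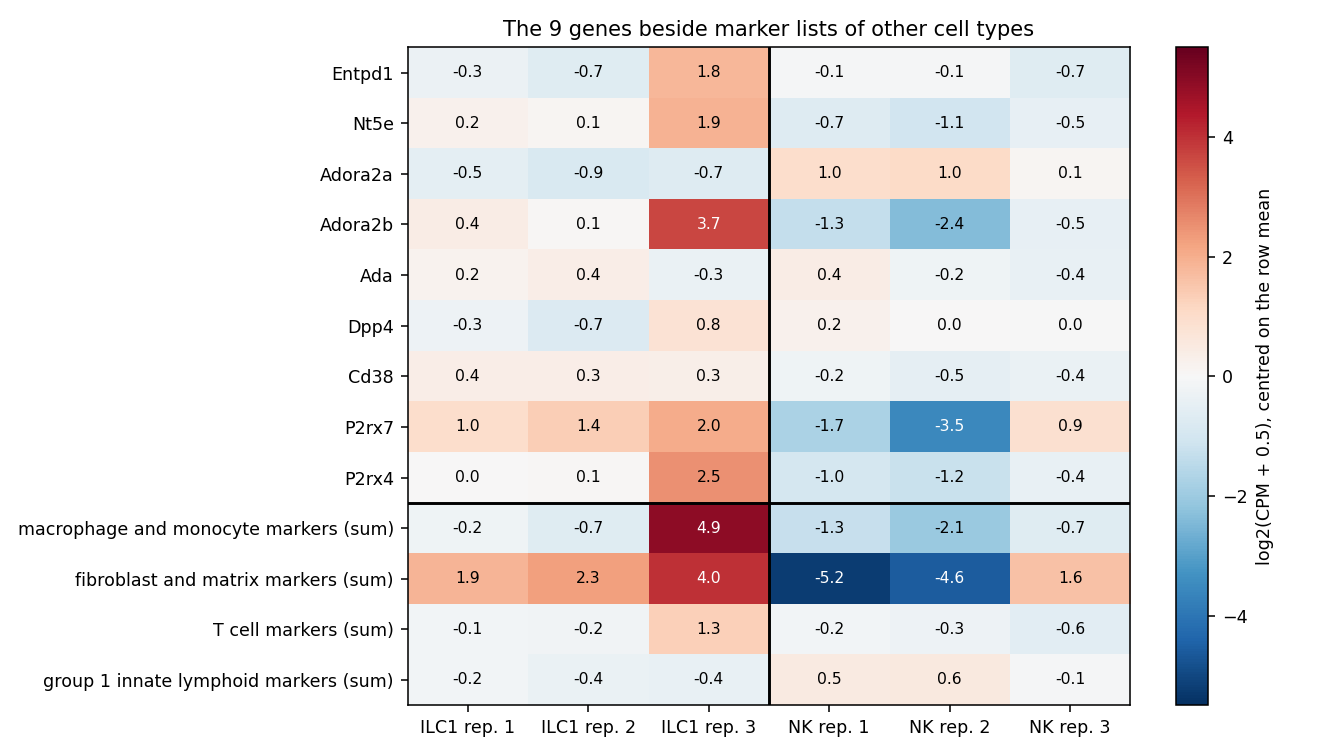
Log2(CPM + 0.5) centred on the mean of each row, for the 9 genes (upper rows) and for the summed CPM of 4 marker lists (lower rows), in the 3 ILC1 libraries (left) and the 3 NK libraries (right). ILC1 replicate 3 is at 4.9 for the macrophage markers, 3.7 for Adora2b, 2.5 for P2rx4, 1.9 for Nt5e and 1.8 for Entpd1, and at 0.3 for Cd38 and -0.7 for Adora2a. Its value for the fibroblast and matrix markers rests mostly on Fn1 (5887 of 5929 CPM).

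The order of the genes was compared as CPM per kilobase of exon, which corrects for gene length. The union of all annotated exons served as the length, so a gene read mainly from a short transcript is underestimated. Adora2a led in NK cells with 61.8 ± 19.8 CPM per kb (SD, n = 3), and Ada, Entpd1, Cd38 and Nt5e followed with 7.34 ± 2.35, 6.40 ± 1.46, 4.64 ± 0.429 and 4.15 ± 0.876 CPM per kb. Dpp4, P2rx4, P2rx7 and Adora2b were all under 0.7 CPM per kb on average in NK cells. Neighbours in this order below Adora2a differed by less than their spread, except Entpd1 against Cd38 and Nt5e against Dpp4.

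In ILC1s Adora2a also led on average, with 22.5 ± 2.51 CPM per kb. It was the highest of the 9 genes in ILC1 replicates 1 and 2 (25.05 and 20.03 CPM per kb). In ILC1 replicate 3 Entpd1 and Nt5e came first, with 26.97 and 26.2 CPM per kb, and Adora2a followed with 22.3 CPM per kb. Cd38 stood at 7.58 ± 0.175 and Ada at 7.99 ± 1.97 CPM per kb in ILC1s, which is within the spread of Ada. Dpp4 was lowest, with 0.670 ± 0.434 CPM per kb. The share of Adora2a in the sum of both receptor genes per kb was 94.0, 94.3 and 55.4% in ILC1 replicates 1 to 3, against 99.6, 100 and 98.1% in NK replicates 1 to 3. The ratio of Nt5e to Entpd1 per kb was 1.34, 1.58 and 0.972 in ILC1 replicates 1 to 3, against 0.579, 0.449 and 1.06 in NK replicates 1 to 3, so the groups overlapped.

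**Figure D4:**
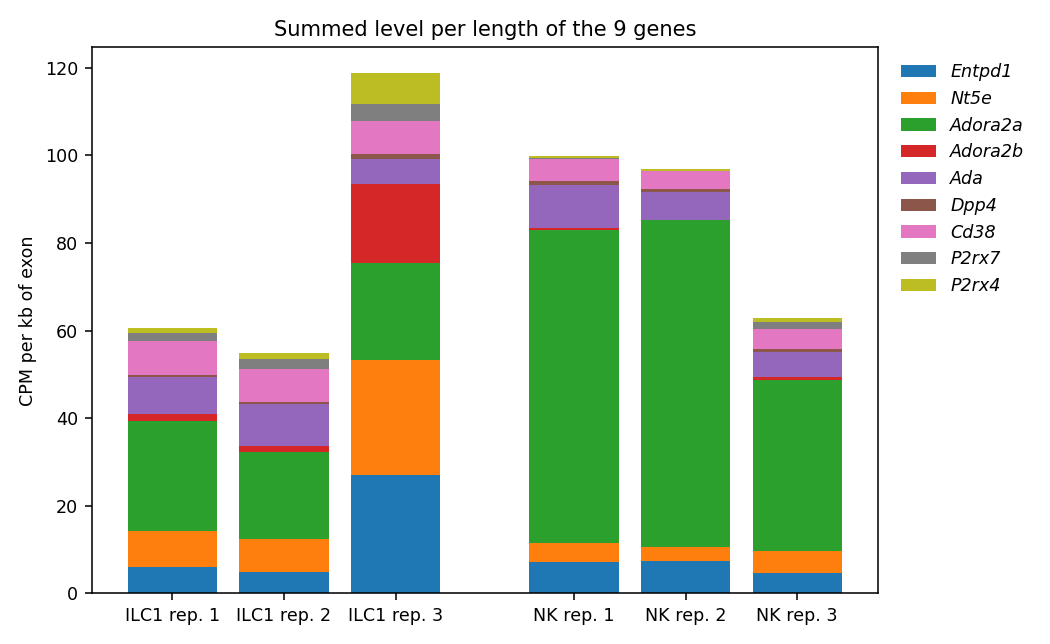
Stacked CPM per kb of exon (y axis, linear from 0) of the 9 genes in each ILC1 library (left) and NK library (right). Adora2a is the largest block in all NK libraries and in ILC1 replicates 1 and 2, and Entpd1 and Nt5e are larger in ILC1 replicate 3, where the sum is 119 CPM per kb.

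The promoter sequences of the members were read as a description, and no link between a match and the levels of a gene was tested. RefSeq windows (GRCm38.p6) matched 8 of the 9 genes by symbol, and Adora2a is named only. The 250 bases before each start were searched on both strands for the core of the cAMP response element TGACG, the core of the hypoxia response element ACGTG, the interferon-gamma activated site TTCNNNGAA and the T-box core GGTGTGA. The 32851 windows of the RefSeq table held them in 17.8, 16.6, 7.02 and 3.33% of cases. The cAMP response element core was found before both Entpd1 starts and in 2 copies before P2rx4, the interferon-gamma activated site before Ada and the T-box core before the second P2rx7 start. The hypoxia response element core was in none of the members' windows, and Nt5e, Adora2b, Dpp4 and Cd38 held no match to any of the 4. The second Entpd1 start and the P2rx4 start are shown because the letters of the element read by cAMP-activated factors lie in them. Both are on the forward strand, and capitals mark TGACG, here in its reverse complement CGTCA.
Entpd1, chr19:40659520-40659769: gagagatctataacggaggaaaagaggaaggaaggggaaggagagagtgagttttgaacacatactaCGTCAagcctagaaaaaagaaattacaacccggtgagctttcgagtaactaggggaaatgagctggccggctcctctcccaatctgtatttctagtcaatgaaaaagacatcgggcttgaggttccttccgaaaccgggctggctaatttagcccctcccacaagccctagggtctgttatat
P2rx4, chr5:122707294-122707543: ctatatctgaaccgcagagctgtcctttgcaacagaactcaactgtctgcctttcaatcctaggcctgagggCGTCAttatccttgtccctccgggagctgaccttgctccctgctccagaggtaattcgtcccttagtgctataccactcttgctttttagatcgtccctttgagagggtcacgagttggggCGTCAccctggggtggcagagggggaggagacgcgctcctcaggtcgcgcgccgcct
The capitals start 183 bases before the second Entpd1 start, and 178 and 57 bases before the P2rx4 start. A match is a description of letters and not a site in use.

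The other genes of purine metabolism and signalling were taken from 8 lists with 121 genes, of which 120 were in the table and 91 were tested. By edgeR 0 of the 91 passed, with 11 higher and 9 lower before adjustment (p under 0.05), 20 of 91 beside 15.8% of all genes tested. DESeq2 called 3 of them higher and 5 lower and gave 4 no adjusted p, and limma-voom called 0. The groups did not overlap for 15 genes higher and 14 lower in ILC1s, beside 12.5% and 13.3% of all genes tested, so these counts lay near the background. The median log2 fold change was 0.13, against 0.08 for all genes tested.

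Among other surface enzymes that act on nucleotides, 5 of 10 genes in the table were tested and 0 passed (median log2 fold change 0.85; 1 higher at an unadjusted p under 0.05). Acpp, an acid phosphatase that can also cut AMP, had 31.9, 26.8 and 27.6 CPM in ILC1 replicates 1 to 3, against 20.2, 15.5 and 12.2 CPM in NK replicates 1 to 3 (log2 fold change 0.85 ± 0.23, edgeR adjusted p = 0.199). Its libraries did not overlap, and ILC1 replicate 3 was not the highest. Bst1, which like CD38 uses NAD, had 81.1 CPM in ILC1 replicate 3, against 0.205 to 2.69 CPM in the other 5 libraries. Enpp1, which cuts ATP and cGAMP, overlapped, at 15.2 ± 3.70 CPM in ILC1s on average, against 22.95 ± 6.98 CPM in NK cells (SD, n = 3 each, as for all means here). Entpd5, an intracellular relative of CD39, also overlapped, at 30.4 ± 5.44 CPM in ILC1s, against 35.2 ± 4.36 CPM in NK cells.

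Of the other adenosine receptors, Adora1 was at 0 in all 6 libraries, and Adora3 was at most 2.72 CPM in ILC1s, against at most 0.299 CPM in NK cells. Of 14 other P2 receptor genes 8 were tested and 0 passed (median 0.885; 1 higher and 1 lower at an unadjusted p under 0.05). P2ry10, a receptor for lysophosphatidylserine despite its name, was the most abundant of them, with means of 316 ± 19.6 CPM in ILC1s, against 430.5 ± 31.1 CPM in NK cells (a log2 fold change of -0.45 ± 0.13, edgeR adjusted p = 0.216). The UDP receptor gene P2ry6 had 1.78, 0.778 and 81.2 CPM in ILC1 replicates 1 to 3, against 0, 0 and 0.959 CPM in NK replicates 1 to 3. The ADP receptor gene P2ry12 likewise had 17.3 CPM in ILC1 replicate 3, against 0.718 to 2.39 CPM in the other 5 libraries.

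For adenosine transport and salvage, 21 of 27 genes were tested and 0 passed (median 0.313; 4 higher and 2 lower at an unadjusted p under 0.05). Slc28a2, a concentrative carrier that takes up purine nucleosides, had 58.3, 48.4 and 53.9 CPM in ILC1 replicates 1 to 3, against 79.7, 91.7 and 82.4 CPM in NK replicates 1 to 3 (log2 fold change -0.66 ± 0.13, edgeR adjusted p = 0.13, lower also by DESeq2). Ahcy, which splits S-adenosylhomocysteine into adenosine and homocysteine, averaged 126.5 ± 20.3 CPM in ILC1s, against 83.1 ± 6.08 CPM in NK cells. Its relative Ahcyl2 averaged 65.2 ± 17.3 CPM in ILC1s, against 33.5 ± 1.07 CPM in NK cells (a log2 fold change of 0.96 ± 0.21, edgeR adjusted p = 0.146, higher also by DESeq2). Neither overlapped between the cell types. Hprt, which salvages hypoxanthine and was the highest of the list per kb, overlapped, at 148 ± 26.8 CPM in ILC1s, against 119 ± 11.5 CPM in NK cells.

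Of 13 genes of ATP release, 10 were tested and 0 passed (median 0.07; 3 lower at an unadjusted p under 0.05). Panx1, a channel through which cells release ATP, had 32.85, 34.7 and 34.6 CPM in ILC1 replicates 1 to 3, against 70.9, 78.7 and 43.0 CPM in NK replicates 1 to 3 (log2 fold change -0.92 ± 0.24, edgeR adjusted p = 0.19). As for Adora2a, the ILC1 libraries lay close together and NK replicate 3, with the most genes detected and mitochondrial counts of the NK libraries, was nearest to them. Panx1 was called lower by DESeq2, and by edgeR without NK replicate 3. Lrrc8c, a subunit of volume-regulated anion channels, averaged 132 ± 14.9 CPM in ILC1s, against 183 ± 26.1 CPM in NK cells. Calhm2, of the calcium homeostasis modulator channels, averaged 13.9 ± 1.97 CPM in ILC1s, against 20.7 ± 1.98 CPM in NK cells, and neither gene overlapped.

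Genes of cAMP signalling, through which A2A and A2B receptors act, had a median log2 fold change of -0.12 over 26 tested of 34, and 0 passed (2 higher and 3 lower at an unadjusted p under 0.05). DESeq2 called 3 lower, which were the phosphodiesterase genes Pde4d and Pde3b, whose products break down cAMP, and Prkacb, a catalytic subunit of protein kinase A. Pde4d had 23.6, 20.8 and 22.9 CPM in ILC1 replicates 1 to 3, against 44.0, 46.1 and 32.2 CPM in NK replicates 1 to 3 (log2 fold change -0.86 ± 0.18, edgeR adjusted p = 0.14). Pde3b averaged 104 ± 10.6 CPM in ILC1s, against 169.7 ± 21.4 CPM in NK cells, and Prkacb 193 ± 20.45 CPM in ILC1s, against 327 ± 65.6 CPM in NK cells. The ILC1 libraries lay below the NK libraries for all 3. Gnai2, an inhibitory G protein subunit and the highest of the list per kb, averaged 809.9 ± 385 CPM in ILC1s, against 791 ± 241 CPM in NK cells, with overlap.

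All 13 genes of de novo purine synthesis were tested, 0 passed, and 12 had a positive log2 fold change (median 0.205; 2 higher at an unadjusted p under 0.05). Atic, which carries out the last steps to IMP, averaged 136 ± 12.9 CPM in ILC1s, against 86.0 ± 12.4 CPM in NK cells (a log2 fold change of 0.66 ± 0.15, edgeR adjusted p = 0.161, higher by DESeq2). Gart, an enzyme of several earlier steps, averaged 84.2 ± 3.85 CPM in ILC1s, against 65.4 ± 2.59 CPM in NK cells. Prps2, which makes the ribose phosphate donor, had the negative value, with 55.2 ± 0.816 CPM in ILC1s, against 64.1 ± 1.25 CPM in NK cells, and neither gene overlapped. Impdh2, the highest of the list per kb, averaged 200.1 ± 27.1 CPM in ILC1s, against 187.5 ± 15.1 CPM in NK cells. Over all 14475 genes, 8110 had a positive log2 fold change.

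Of 7 inflammasome genes, which act downstream of P2X7 in macrophages, all were tested and 0 passed (1 higher at an unadjusted p under 0.05). Il1b had 125.3, 98.6 and 4348 CPM in ILC1 replicates 1 to 3, against 34.8, 17.75 and 96.1 CPM in NK replicates 1 to 3. Nlrp3 had 32.5, 17.6 and 414 CPM in ILC1 replicates 1 to 3, against 9.63, 1.74 and 27.25 CPM in NK replicates 1 to 3. Il18 was at most 8.22 CPM in ILC1s, against at most 1.49 CPM in NK cells. The median of the list was -0.01. The library with the high values was also highest for the macrophage markers and other marker lists, and their part was not tested.

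**Figure D5:**
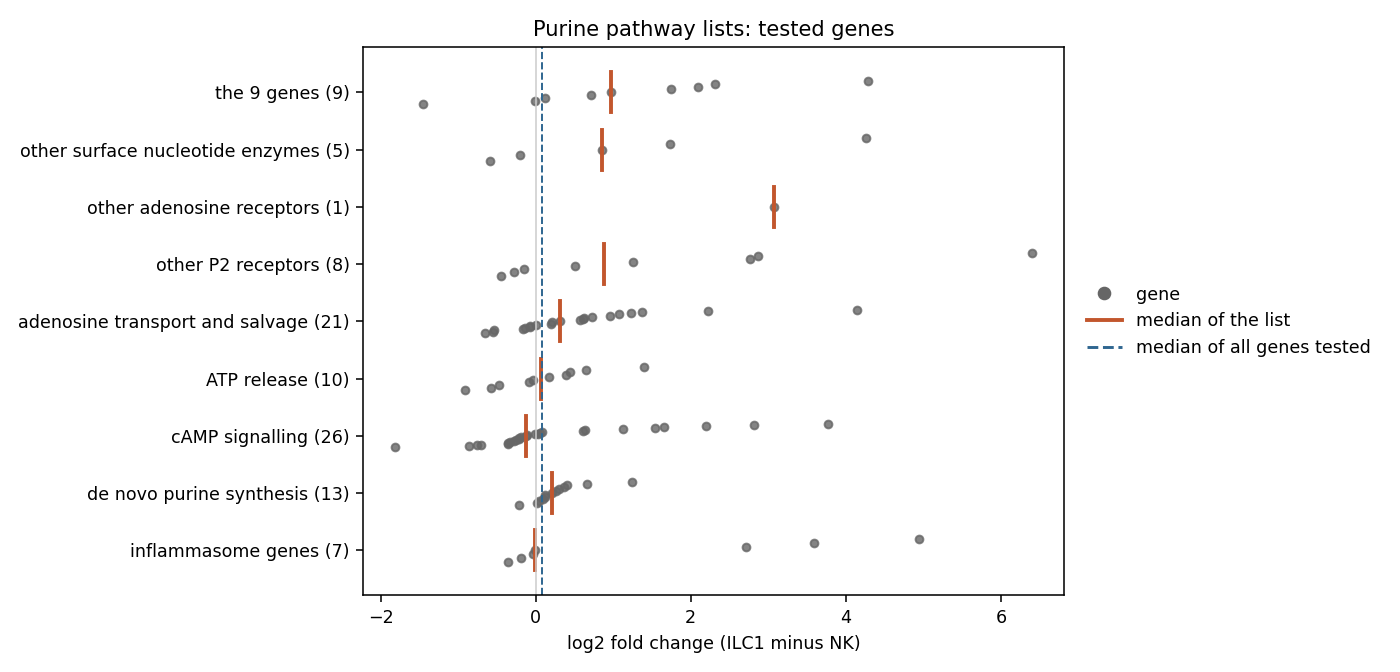
Log2 fold change (x axis, ILC1 minus NK) of each tested gene (grey points) in the 9 genes and 8 further purine lists, with the number tested in brackets, the median of each list (orange) and the median of all genes tested (dashed, 0.08). The medians run from -0.12 for cAMP signalling to 3.08 for other adenosine receptors, which rests on 1 gene, and no point passed edgeR's test.

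The genes whose levels most resembled each member were sought among 9858 named protein-coding genes with a mean of at least 5 CPM, by the root mean square difference of centred log2 CPM over the 6 libraries. Cd38 was most like Stard4 (0.0677) and Spsb1 (0.0749), the closest likeness found for a member. Stard4, a sterol carrier gene, had 82.2, 84.7 and 82.9 CPM in ILC1 replicates 1 to 3, against 51.4, 49.6 and 50.1 CPM in NK replicates 1 to 3. Adora2a was most like Klrb1c (0.0918), which encodes the receptor NK1.1, and Kcnip3 (0.124). Klrb1c had 359, 338.5 and 355 CPM in ILC1 replicates 1 to 3, against 1037, 1057 and 603 CPM in NK replicates 1 to 3.

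Likeness was scored over the same 6 libraries. Members highest in ILC1 replicate 3 were therefore bound to be most like genes with the same peak. Dpp4, also highest there, had a mean under 5 CPM and was not searched. For Entpd1 the most alike genes were the kinase gene Fgr (0.109) and the transferrin gene Trf (0.137). Fgr had 56.8, 51.5 and 249 CPM in ILC1 replicates 1 to 3, against 64.6, 61.1 and 45.4 CPM in NK replicates 1 to 3. For P2rx4 the most alike genes were Cdkn1a (0.107) and Gcnt2 (0.109), and for Nt5e Dusp3 (0.141) and the copper transporter gene Slc31a1 (0.164). For Adora2b they were Nlrp3 (0.445) and the chemokine gene Cxcl9 (0.461). P2rx7 was most like Cttnbp2nl (0.195) and Rab11fip5 (0.202), and Ada was most like Fam185a (0.116) and Rpa2 (0.132). Rab11fip5 had 22.1, 28.1 and 51.9 CPM in ILC1 replicates 1 to 3, against 2.79, 0.0513 and 16.9 CPM in NK replicates 1 to 3.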

How the data were processed

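The authors deposited raw counts per gene symbol, 1 column for each of the 6 libraries. HISAT2 2.1.0, featureCounts 2.0.1 and GRCm38 are named, per the submitters' processing notes. Libraries were made from oligo(dT)-purified mRNA and sequenced from 1 end for 50 bases, per the labels' protocols. The sources used here do not give the annotation release, strand setting or handling of reads with several matches, so reads of overlapping genes may be shared, and PCR copies are counted. Columns were matched to samples by name.

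Counts (16931099 to 20224847 per library) were analysed in R 4.3.3 with edgeR 4.0.16: TMM factors, filterByExpr (14475 genes), a robust quasi-likelihood fit with cell type as the only term, Benjamini-Hochberg adjustment and a threshold of 0.05. The common dispersion was 0.352. CPM use TMM-scaled library sizes. Positions and exon lengths come from GENCODE M21 on GRCm38. Likeness of pattern used log2 CPM with a prior count of 2. The fit was tested on simulated data with the spread of these libraries. Small fold changes were mostly not recovered, many larger ones were also missed, and some unchanged genes were called. A gene that did not pass may therefore still differ, and a call may be false. DESeq2 1.42.0 (on the whole table), limma-voom in limma 3.58.1, other normalizations and filters, a replicate block and left-out libraries were run as alternatives. No library pair agreed within counting noise (the lowest median chi-square of a pair was 2.42, beside 0.455 from counting alone).

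The members, gene lists and alternatives were chosen with earlier results of these data known. All members are named; of each list, up to 3 genes with the smallest p and the highest per kb are named, and of each member with a mean of at least 5 CPM the 2 most alike genes.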

Additional observations from a re-analysis of the deposited data

How the results depend on the processing

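Direction and side of the threshold were recomputed under 14 alternatives. The 9 genes gave 0 calls by edgeR with all libraries, 4 by DESeq2, 1 with no low-count filter, 0 to 1 with single libraries left out and 5 without both replicate 3 libraries. The genes called over the whole table numbered 12, and 138 with no low-count filter, 808 by DESeq2, 0 with the replicate block, 0 to 449 with single libraries left out and 4458 without both replicate 3 libraries. Of the single libraries, NK replicate 3 gave 449 calls when left out, ILC1 replicate 3 gave 22, and each of the other 4 gave 0. The other purine lists gave 0 calls, 9 by DESeq2 (P2ry13, outside the edgeR filter, is the ninth), 0 to 3 with single libraries left out and 35 without both. Adora2a, Adora2b, Cd38, Nt5e, P2rx4 and P2rx7 kept their direction in all alternatives run. Adora2b ran from 1.96 to 5.505 and P2rx7 from 1.51 to 4.68 on the log2 scale, P2rx7 passing without both (4.32, edgeR adjusted p = 0.0356). Entpd1 ran from -0.414 to 1.375 and was negative without ILC1 replicate 3 (-0.247) and without both (-0.414). Ada ran from -0.028 (without NK replicate 3) to 0.401 and was -0.027 without ILC1 replicate 2. Dpp4, at -0.01, turned to 0.011 by RLE normalization and DESeq2, 0.033 with no low-count filter, and 0.165, 0.305 and 0.084 without ILC1 replicate 1, ILC1 replicate 2 and NK replicate 1, was -0.725 without both, and had no value at a minimum mean of 5 CPM. The cause of these changes was not tested.

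The labels number the replicates without saying that a number is shared. Deviations of same-numbered libraries correlated at -0.363, -0.355 and -0.564, and no library correlated best with its own number, so they were not treated as pairs. With the replicate block 0 of the 9 genes passed. With a prior count of 0.5, 0 of 2 genes most like Adora2b and 1 of 2 most like P2rx7 were shared. A count of 0 allowed 0.144 to 0.174 CPM per library.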
